A study of Homo sapiens with 36 samples.

Results

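The p53 pathway target genes examined here are 31 genes that textbook accounts place under the direct control of the tumour suppressor p53, taken by symbol from the deposited count table. Of the 31, 29 were among the 15186 genes of the table and all 29 were tested, while TNFRSF10A and SPATA18 were not analysed here. p53 is a transcription factor that is kept at a low level by the ubiquitin ligase MDM2 and its partner MDM4. It accumulates after DNA damage, nucleolar stress or oncogene signalling, binds paired copies of a short response element and activates genes of cell cycle arrest, cell death, DNA repair and metabolism. Several of its targets, MDM2 among them, act back on p53 and end the response.

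The libraries came from U2OS, an osteosarcoma cell line that retains wild-type p53, in a derivative stably transfected with the alpha isoform of the glucocorticoid receptor (GR), which all groups share. Cells received a pair of siRNAs and, after 48 h, 100 nM dex, a glucocorticoid that activates GR, or the ethanol vehicle for 8 h. The siRNA pairs were siNSsiNS, used here as the control, siHic5siNS (against Hic-5, a GR coregulator encoded by TGFB1I1), siCHD9siNS and siBRMsiNS (against the chromatin remodelers CHD9 and BRM, the latter encoded by SMARCA2), and the combinations siCHD9siHic5 and siBRMsiHic5. Each of the 12 groups had 3 biological replicates made on different days. Per its description, the study asked whether genes at which Hic-5 blocks GR need these remodelers.

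Of the members, 24 had an entry among the RefSeq promoters of GRCh38.p14. A sequence close to the p53 response element, with both decamers adjacent and at most 3 mismatches to the consensus over 20 bases, was found within 250 bases upstream of an annotated start in 5 of them (20.8%), against 1469 of 27305 genes with such an entry (5.38%). By promoter window the shares were 6 of 36 (16.7%) and 1532 of 35116 (4.36%), as some genes had several windows. The members were chosen as direct p53 targets, so a higher share among them is no independent test. The consensus is its own reverse complement, so that 1 search covers both strands. The 5 sequences are shown because their genes are among the members described below, each 5′ to 3′ along its gene's strand, with the element in capitals and flanking bases in lower case.
FAS: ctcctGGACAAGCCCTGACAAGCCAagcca
FDXR: ggcccGGGCAGGAGCGGGCTTGCCCt
SESN1: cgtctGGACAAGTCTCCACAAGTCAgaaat
MDM2: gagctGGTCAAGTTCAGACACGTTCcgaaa
AEN: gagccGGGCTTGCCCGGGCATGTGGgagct
The FAS stretch lies at chr10:88991304-88991333 on the plus strand, with the first base of the element 122 bases before an annotated start. The FDXR stretch lies at chr17:74872995-74873020 and the SESN1 stretch at chr6:109009013-109009042, both on the minus strand. Their elements begin 21 and 49 bases before an annotated start. The MDM2 element, in chr12:68808918-68808947 on the plus strand, begins 94 and 101 bases before 2 annotated starts. The AEN element, in chr15:88621301-88621330 on the plus strand, begins 34 bases before an annotated start. The stretches of FAS, SESN1, MDM2 and AEN lie within the full extent of their genes, so these starts are not the outermost ones. FAS, MDM2 and AEN had 2 mismatches, FDXR and SESN1 had 3. A match is a likeness of letters and was not tied to binding in these cells, and members without a match in this window may hold elements elsewhere.

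The 36 libraries held 27.4 to 47.1 M counts. Of 9 osteoblast and mesenchymal markers listed, 6 were in the count table, without SP7, COL1A2 and TWIST1. COL1A1 ranged from 1153 to 3511, RUNX2 from 13.0 to 63.7 and ALPL from 3.60 to 57.5 CPM (counts scaled to library size). Epithelial, myeloid and endothelial markers in the table were low. Their highest values were 7.97 CPM for KRT14, 4.84 for EPCAM, 3.51 for LYZ, 9.03 for VWF and 4.31 for PECAM1. TGFB1I1 fell to 24.9%, 26.2% and 18.4% of the control level in vehicle libraries of siHic5siNS, siCHD9siHic5 and siBRMsiHic5, and SMARCA2 fell to 28.9% and 24.9% in siBRMsiNS and siBRMsiHic5. CHD9 fell to 67.9% in vehicle libraries of siCHD9siNS (adjusted p = 0.0194) but rose to 139% in siCHD9siHic5 (adjusted p = 0.0292), against the label, so these groups are called the libraries labelled siCHD9siNS and siCHD9siHic5. NR3C1, the gene of GR, rose 1.48-fold in vehicle libraries of siHic5siNS (adjusted p = 0.00261). With dex, CHD9 stood at 85.4% in siCHD9siNS and was not called (adjusted p = 0.411). Its lowest mean was in siBRMsiHic5, which had no CHD9 siRNA (51.1% in vehicle, adjusted p = 0.000107, and 61.2% with dex, adjusted p = 0.0025). Both CHD9 calls in vehicle libraries labelled with CHD9 siRNA were lost without some single libraries, at adjusted p up to 0.0854 and 0.151.

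In vehicle libraries the p53 targets were higher most often in those labelled siCHD9siHic5, where 22 of the 29 rose against siNSsiNS and 0 fell. All 29 fitted log2 differences were positive there, with a median of 0.78 against -0.05 over all genes. Of all tested genes, 23.7% were called higher and 28.9% lower in that comparison, by edgeR's quasi-likelihood test at a Benjamini-Hochberg adjusted p under 0.05, which is the call used throughout. In siCHD9siNS libraries 13 members rose and 1 fell, with a median of 0.60 against 0.02, where 15.8% of all genes were called higher and 16.5% lower. In siHic5siNS libraries 7 of the 29 rose and 4 fell, with a median of 0.28 against -0.01. Of all genes 26% were called higher and 27.2% lower there, so neither member count exceeded the share of all genes. In bulk RNA, fewer cells of a kind and less RNA per cell cannot be told apart.

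The conditions with BRM siRNA lacked the lean toward higher calls of the libraries labelled siCHD9siHic5 and siCHD9siNS. In siBRMsiNS libraries 2 members rose and 1 fell, where 4.26% of all genes were called higher and 2.19% lower, and the median of the members was -0.13 against 0.04. In siBRMsiHic5 libraries 6 rose and 7 fell, where 24.4% were called higher and 24.6% lower, and the median was 0.14 against -0.01. By mean level, 19 members were highest in siCHD9siHic5 among the 6 vehicle groups, 6 in siCHD9siNS, 3 in siHic5siNS and 1 in siBRMsiHic5. The lowest mean was in siBRMsiNS for 10 members, in siBRMsiHic5 for 8, in siHic5siNS for 6 and in siNSsiNS for 5. This order was not counted over all genes, so these counts of highest and lowest means are a description only. The comparisons with siNSsiNS share its 3 vehicle libraries.

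**Figure D1:**
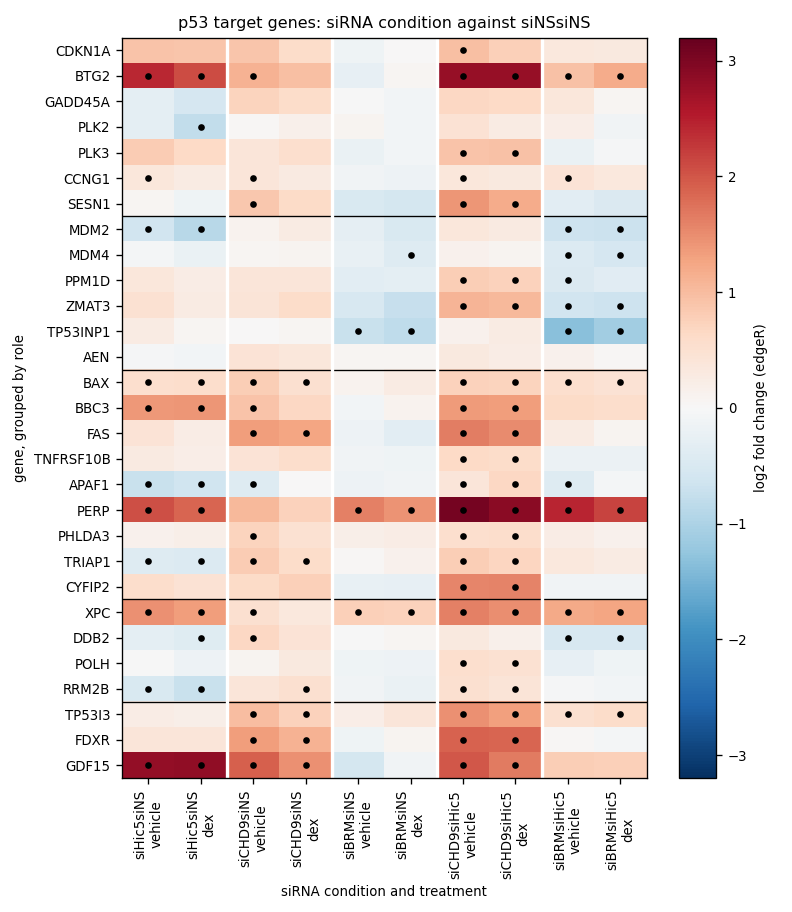
Log2 difference of each of the 29 members from siNSsiNS (colour), by siRNA condition, in vehicle and dex libraries, with black dots on called members. All 29 are positive in the vehicle libraries labelled siCHD9siHic5, and 22 of them were called.

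Calls differed in how far they held when settings were changed or single libraries left out. The share of all genes called was not computed for DESeq2 or for runs without a library or pair. Member counts from those runs, here and below, are therefore not set against all genes. In the libraries labelled siCHD9siHic5, 16 of the 22 calls held in every alternative run, and in siCHD9siNS 9 of 14. In siHic5siNS 6 of 11 held (XPC, BTG2, GDF15, BBC3, PERP and APAF1) and in siBRMsiHic5 4 of 13 (XPC, PERP, TP53INP1 and DDB2). None of the 3 siBRMsiNS calls held: leaving out replicate 1 or 2 of siNSsiNS or replicate 3 of siBRMsiNS left 0 called members, while leaving out replicate 1 of siBRMsiNS left 6. In siBRMsiHic5, leaving out replicate 1 of siNSsiNS left 5 called members, and in siCHD9siNS, leaving out its replicate 2 left 9.

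The spread between replicates was uneven across the set. The median log2 difference of the members from the control mean was 0.65, 0.98 and 0.54 in replicates 1 to 3 of the vehicle libraries labelled siCHD9siHic5, and 0.50, 0.69 and 0.59 in siCHD9siNS. In siHic5siNS it was 0.20, 0.64 and -0.03, so that replicate 2 stood highest and replicate 3 lay near the control. In siBRMsiNS it was 0.15, -0.02 and -0.47, and in replicate 3 of that group 26 of the 29 members lay below the whole range of the control libraries, as did 36.8% of all genes, while 42.2% of all genes lay above it. In siBRMsiHic5 the medians were 0.26, -0.13 and 0.09.

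**Figure D2:**
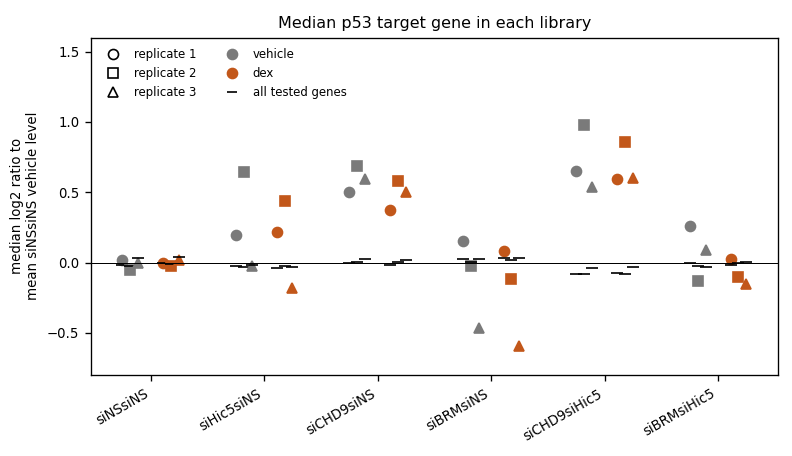
Median over the 29 members of the log2 difference from the siNSsiNS mean (y axis), 1 point per library, by siRNA condition and treatment, with the median of all tested genes as short lines. The libraries labelled siCHD9siHic5 lie at 0.54 or higher in all 6, and replicate 3 of siBRMsiNS lies lowest in both treatments.

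Among the genes of cell cycle arrest, BTG2 changed by the largest amount. CDKN1A encodes p21, the inhibitor of cyclin-dependent kinases through which p53 halts the cell cycle. Its levels in vehicle libraries were 513, 573 and 496 CPM in siNSsiNS, 671, 1639 and 668 in siHic5siNS, and 828, 1255 and 836 in siCHD9siNS. They were 847, 1466 and 744 CPM in the libraries labelled siCHD9siHic5, 753, 472 and 223 in siBRMsiNS, and 884, 448 and 679.9 in siBRMsiHic5. Every library of the first 3 siRNA conditions lay above the control range, with replicate 2 the highest in each, while the groups with BRM siRNA overlapped the control. CDKN1A rose in the libraries labelled siCHD9siHic5 (log2 difference 0.95 ± 0.40 SE, adjusted p = 0.0471), a call that was lost without any 1 of the control libraries (adjusted p 0.103, 0.0765 and 0.106) or without replicate 2 (log2 0.59, adjusted p = 0.265). It did not pass in siHic5siNS (0.91 ± 0.40, adjusted p = 0.0557; 0.0411 with the replicate block), siCHD9siNS (0.88 ± 0.40, adjusted p = 0.0901), siBRMsiNS (-0.13 ± 0.40, adjusted p = 0.865) or siBRMsiHic5 (0.35 ± 0.40, adjusted p = 0.487).

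BTG2, an antiproliferative cofactor of mRNA deadenylation, stood at 50.9, 82.4 and 52.4 CPM in the control. It reached 209, 604 and 172 CPM in siHic5siNS and 318, 659 and 307 in siCHD9siHic5, with no overlap with the control and replicate 2 far above the others. BTG2 rose 5.31-fold in siHic5siNS (log2 2.41 ± 0.39, adjusted p = 1.09e-05) and 6.91-fold in siCHD9siHic5 (2.79 ± 0.40, adjusted p = 1.5e-06). In siCHD9siNS it was 91.8, 193 and 118 CPM (log2 1.12, adjusted p = 0.0235) and in siBRMsiHic5 149, 94.9 and 114 (log2 0.95, adjusted p = 0.0369). Both groups lay above the control range, but each call was lost without some single libraries, at adjusted p up to 0.147 and 0.139. In siBRMsiNS, at 59.3, 51.5 and 44.8 CPM, it overlapped the control.

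CCNG1, a cyclin that recruits phosphatase 2A to MDM2, rose by small amounts in 4 of the 5 vehicle comparisons, with log2 differences of 0.37 in siHic5siNS, 0.40 in siCHD9siNS, 0.37 in siCHD9siHic5 and 0.43 in siBRMsiHic5. Each of these calls was lost without some single libraries (adjusted p up to 0.301, 0.121, 0.139 and 0.0981). PLK3, a stress-responsive polo-like kinase, stood at 38.1, 54.1 and 34.0 CPM in the control and at 63.0, 122 and 51.7 in siCHD9siHic5, groups that overlapped. It was called there (log2 0.91, adjusted p = 0.0389), but not without replicate 2 (adjusted p = 0.346) or without replicate 1 or 3 of the control. GADD45A, which binds PCNA and stress kinases, reached 241, 288 and 177 CPM in siCHD9siNS against 140.3, 161 and 126 in the control; it passed only with the replicate block there (log2 0.70 ± 0.22, adjusted p = 0.0139; 0.06 without). PLK2, the related kinase of centriole duplication, was not called in any vehicle comparison with siNSsiNS.

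The feedback regulators of p53 did not all move with the other targets. MDM2, the ligase that degrades p53, stood at 409.7, 383 and 326 CPM in the control. It was at 209.7, 339 and 179 CPM in siHic5siNS and at 244, 226 and 239 in siBRMsiHic5, and at 512, 508 and 429 in siCHD9siHic5. All 3 siBRMsiHic5 libraries lay below the control range, all 3 labelled siCHD9siHic5 lay above it, and siHic5siNS overlapped it in replicate 2. MDM2 fell in siHic5siNS (log2 -0.62 ± 0.22, 0.651-fold, adjusted p = 0.0192) and in siBRMsiHic5 (-0.66 ± 0.22, 0.634-fold, adjusted p = 0.0149). Without replicate 1 of the control neither call held (adjusted p 0.0577 in siBRMsiHic5 and up to 0.123 in siHic5siNS, where leaving out its replicate 1 or 3 also ended the call). It did not pass in siCHD9siHic5 (0.37 ± 0.22, adjusted p = 0.156), siCHD9siNS (0.11 ± 0.22, adjusted p = 0.749) or siBRMsiNS (-0.29 ± 0.22, adjusted p = 0.41).

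MDM4, the partner of MDM2 that masks the p53 activation domain, was called in 1 of the 5 vehicle comparisons with siNSsiNS, falling in siBRMsiHic5 (log2 -0.45 ± 0.13, adjusted p = 0.00706), where it stood at 82.6, 58.0 and 67.5 CPM against 106, 94.4 and 83.8, without overlap. That call was lost without replicate 1 of the control or replicate 2 of siBRMsiHic5 (adjusted p up to 0.0594). PPM1D, the phosphatase that removes activating marks from p53 and its kinases, rose in siCHD9siHic5 (285, 302 and 259 CPM against 173, 159 and 153; log2 0.80, adjusted p = 0.000103) and fell in siBRMsiHic5 (126, 111 and 117 CPM; log2 -0.46, adjusted p = 0.0159, up to 0.0607 without replicate 1 of the control or replicate 2 of siBRMsiHic5). ZMAT3, an RNA-binding zinc finger protein, rose in siCHD9siHic5 from 230.2, 234 and 216 CPM to 519, 515 and 419.6 (log2 1.09, adjusted p = 0.000622). In siBRMsiHic5 it was at 179, 143 and 127 CPM (log2 -0.60, adjusted p = 0.0463), a call lost without any 1 of 5 libraries. TRIAP1, an inhibitor of apoptosome activation, rose in siCHD9siNS (118, 123 and 109 CPM against 65.9, 64.0 and 68.8; log2 0.82 ± 0.17, adjusted p = 0.000755) and in siCHD9siHic5 (log2 0.78, adjusted p = 0.000453). In siHic5siNS it was at 46.5, 60.1 and 42.8 CPM, below the control in every library, with a call (log2 -0.41 ± 0.17, adjusted p = 0.0468) that TMM factors, DESeq2 or the loss of any 1 of 5 libraries ended.

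The genes of cell death included several of the clearest increases. FAS, a death receptor, stood at 70.5, 55.0 and 72.5 CPM in the control, 183, 149.7 and 170.1 in siCHD9siNS and 227, 212 and 180.2 in siCHD9siHic5. The lowest of these 6 libraries was above the highest control library. FAS rose 2.54-fold in siCHD9siNS (log2 1.34 ± 0.21, adjusted p = 1.95e-05) and 3.13-fold in siCHD9siHic5 (1.65 ± 0.21, adjusted p = 2.35e-07), while in siHic5siNS, at 94.1, 94.3 and 79.1 CPM, it did not pass (log2 0.43, adjusted p = 0.0716). TNFRSF10B, which encodes the death receptor DR5, was called in 1 of the 5 vehicle comparisons with siNSsiNS, that of siCHD9siHic5 (291, 403 and 256 CPM against 206, 237 and 172; log2 0.63, adjusted p = 0.032), and not without its replicate 2 or replicate 1 or 3 of the control (adjusted p up to 0.198).

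Of the mitochondrial death pathway, BAX, which permeabilises the outer membrane, rose in 4 comparisons. It stood at 119, 116 and 142 CPM in the control and at 219.7, 223 and 211 in siCHD9siNS (log2 0.80 ± 0.17, adjusted p = 0.00098), with no overlap. In siCHD9siHic5 it was at 194, 246 and 191 CPM (log2 0.74, adjusted p = 0.00074), also above every control library. The smaller increases in siHic5siNS (log2 0.53 ± 0.17, adjusted p = 0.0111) and siBRMsiHic5 (log2 0.54, adjusted p = 0.012) were each lost without some single libraries (adjusted p up to 0.101 and 0.0558). BBC3, the BH3-only protein PUMA, rose in siHic5siNS (70.0, 122 and 59.0 CPM against 31.4, 37.1 and 27.2; log2 1.39 ± 0.28, adjusted p = 0.000188). It also rose in siCHD9siHic5 (69.6, 116 and 62.1 CPM; log2 1.37, adjusted p = 0.000202) and in siCHD9siNS (53.4, 75.4 and 52.4 CPM; log2 0.92, adjusted p = 0.0132, up to 0.0683 without a single library). In these 3 groups every library exceeded the control range.

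APAF1, the scaffold of the apoptosome, fell in 3 conditions and rose in 1. Its levels were 31.5, 29.2 and 30.2 CPM in the control, 20.7, 18.6 and 16.2 in siHic5siNS and 18.8, 20.8 and 28.6 in siCHD9siNS. In siBRMsiHic5 they were 23.6, 25.3 and 19.8 CPM and in siCHD9siHic5 38.5, 37.5 and 42.1. The first 3 siRNA groups lay wholly below the control and siCHD9siHic5 wholly above it. APAF1 fell in siHic5siNS (log2 -0.71 ± 0.14, adjusted p = 0.000112), in siCHD9siNS (-0.41 ± 0.14, adjusted p = 0.0233) and in siBRMsiHic5 (-0.40, adjusted p = 0.017), and rose in siCHD9siHic5 (0.38, adjusted p = 0.0229). The last 3 calls were each lost without some single libraries (adjusted p up to 0.165, 0.106 and 0.0814 in that order).

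PERP, a membrane protein of desmosomes and apoptosis, stood low in the control at 4.44, 4.30 and 7.26 CPM. It reached 23.6, 20.7 and 22.9 CPM in siHic5siNS, 24.2, 28.0 and 34.1 in siBRMsiHic5 and 46.5, 49.2 and 38.9 in siCHD9siHic5. No library of these groups overlapped the control. PERP rose 4.19-fold (log2 2.07 ± 0.48, adjusted p = 0.00072), 5.38-fold (2.43 ± 0.48, adjusted p = 0.000189) and 8.38-fold (3.07 ± 0.49, adjusted p = 8.99e-06) in that order. In siBRMsiNS it was at 5.03, 10.7 and 33.0 CPM, spread from the control range to that of siBRMsiHic5, and its call (log2 1.61 ± 0.47, adjusted p = 0.0414) did not hold without replicate 3 (log2 0.56, adjusted p = 0.635) or without replicate 1 or 2 of the control (adjusted p 0.174 and 0.171). In siCHD9siNS, at 10.8, 9.08 and 12.9 CPM, it lay above the control but passed only with the replicate block (log2 1.07 ± 0.39, adjusted p = 0.0339; 0.0934 without).

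TP53I3, the quinone oxidoreductase PIG3, rose in siCHD9siNS (91.7, 80.7 and 133 CPM against 50.4, 43.3 and 60.2; log2 0.99 ± 0.19, adjusted p = 0.000235) and in siCHD9siHic5 (135, 131 and 155 CPM; 1.45 ± 0.19, adjusted p = 4.14e-07). Both groups lay above the control. In siBRMsiHic5 it was also called (71.6, 73.1 and 75.6 CPM; log2 0.52, adjusted p = 0.0228), but not without replicate 1 or 2 of the control or replicate 3 of siBRMsiHic5 (adjusted p up to 0.116). CYFIP2, a subunit of the WAVE actin regulatory complex, rose in 1 of the 5, that of siCHD9siHic5 (301, 372 and 278 CPM against 105, 96.5 and 119; log2 1.57 ± 0.29, adjusted p = 4.64e-05). PHLDA3, which competes with AKT for membrane lipids, rose in siCHD9siNS (213, 237 and 208 CPM against 139, 132 and 134; log2 0.70 ± 0.18, adjusted p = 0.00444) and in siCHD9siHic5 (204, 213 and 172 CPM; log2 0.54, adjusted p = 0.0148, 0.0559 without replicate 2). AEN, an apoptosis-enhancing nuclease, stood above the control in siCHD9siNS at 189, 197 and 175 CPM against 147, 131 and 134, and passed only with the replicate block (log2 0.44 ± 0.14, adjusted p = 0.014; 0.0533 without).

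TP53INP1, a nuclear and autophagy protein that promotes p53 phosphorylation, was the member that fell furthest with BRM siRNA. It stood at 158, 144 and 154 CPM in the control, 112, 96.3 and 68.4 in siBRMsiNS and 61.0, 55.8 and 64.0 in siBRMsiHic5. Both groups lay below the control, and siBRMsiHic5 lay below every library of siBRMsiNS. TP53INP1 fell to 0.397-fold in siBRMsiHic5 (log2 -1.33 ± 0.19, adjusted p = 3.06e-06). In siBRMsiNS it fell to 0.606-fold (-0.72 ± 0.18, adjusted p = 0.026), but not without replicate 3 of that group (-0.55, adjusted p = 0.245) or replicate 1 or 2 of the control (adjusted p 0.119 and 0.0879). In siCHD9siHic5, where 22 other members rose, it did not pass (172, 148 and 177 CPM; log2 0.13, adjusted p = 0.579).

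**Figure D3:**
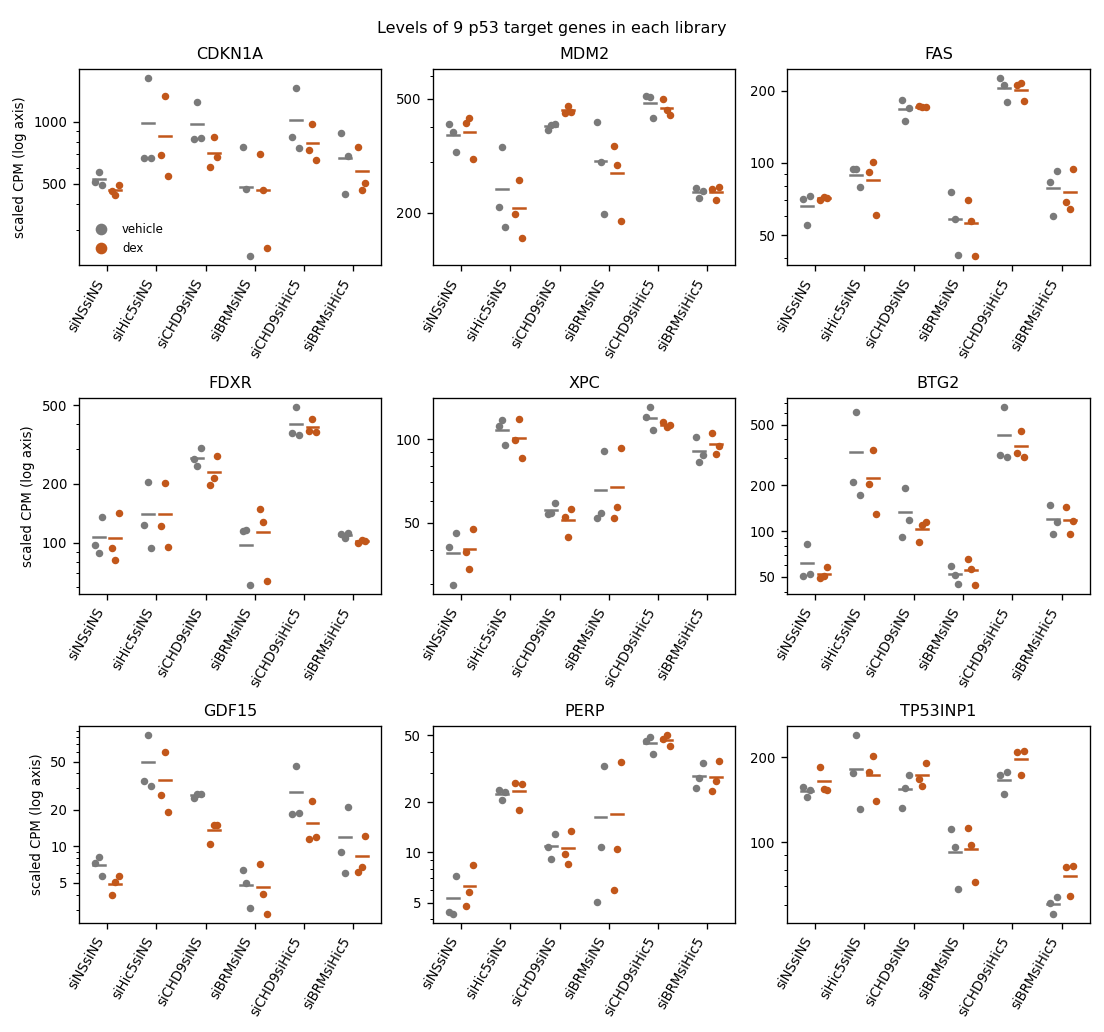
Level in CPM (y axis, log scale) of 9 members in each of the 36 libraries (points), by siRNA condition, with vehicle in grey, dex in orange and short lines at the group means. FAS lies above the control in all libraries labelled siCHD9siNS and siCHD9siHic5, XPC and PERP in all libraries with Hic-5 siRNA, and TP53INP1 lies below it in all libraries with BRM siRNA.

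Among the repair genes, XPC, the lesion sensor of nucleotide excision repair, was called in all 5 vehicle comparisons. It stood at 40.9, 29.8 and 46.0 CPM in the control, 111, 117 and 95.1 in siHic5siNS, 119.9, 131 and 108 in siCHD9siHic5 and 102, 82.9 and 88.0 in siBRMsiHic5. The lowest of the 9 libraries with Hic-5 siRNA exceeded the highest control library. XPC rose 2.77-fold in siHic5siNS (log2 1.47 ± 0.20, adjusted p = 8.9e-07), 3.07-fold in siCHD9siHic5 (1.62 ± 0.20, adjusted p = 1.81e-07) and 2.34-fold in siBRMsiHic5 (1.22 ± 0.20, adjusted p = 1.8e-05). The increases in siCHD9siNS (log2 0.52, adjusted p = 0.0444) and siBRMsiNS (0.76 ± 0.20, adjusted p = 0.0272) were smaller; the first was lost without any 1 of 5 libraries (adjusted p up to 0.231), the second without replicate 3 of siBRMsiNS (log2 0.45, adjusted p = 0.331) or replicate 1 or 2 of the control (adjusted p 0.105 and 0.158). LSM3 overlaps exons of XPC on the opposite strand, and whether the counting used strand is not given in the sources used here.

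DDB2, the damage-binding partner of XPC, rose in siCHD9siNS (94.4, 117 and 107 CPM against 66.3, 62.3 and 71.7; log2 0.67 ± 0.16, adjusted p = 0.00179) and fell in siBRMsiHic5 (46.6, 47.0 and 46.9 CPM; -0.51 ± 0.16, adjusted p = 0.00821), with no overlap with the control in either. POLH, the translesion polymerase eta, rose in siCHD9siHic5 (110.4, 114 and 118 CPM against 82.3, 72.7 and 81.6; log2 0.53, adjusted p = 0.000556). RRM2B, the p53-inducible subunit of ribonucleotide reductase, rose in siCHD9siHic5 (548, 496 and 456 CPM against 353, 326 and 368; log2 0.52, adjusted p = 0.0102). In siHic5siNS it was at 233, 289.9 and 227 CPM, below every control library, with a call (log2 -0.48 ± 0.17, adjusted p = 0.016) that was lost without any 1 of 3 libraries (adjusted p up to 0.0672).

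Of the stress and metabolic members, SESN1, a sestrin that restrains mTORC1, rose in siCHD9siNS (104, 103 and 108 CPM against 66.5, 50.3 and 56.8; log2 0.86 ± 0.23, adjusted p = 0.00498) and in siCHD9siHic5 (153, 168 and 139 CPM; 1.40 ± 0.23, adjusted p = 1.13e-05). FDXR, the mitochondrial ferredoxin reductase, rose in the same conditions, from 98.0, 89.3 and 136 CPM to 265, 244 and 303 (log2 1.33 ± 0.30, adjusted p = 0.00113) and to 361, 491 and 351 (1.90 ± 0.30, adjusted p = 7.28e-06). Neither gene overlapped the control in these groups. GDF15, a secreted stress cytokine, stood at 7.25, 8.20 and 5.67 CPM in the control and at 34.7, 82.3 and 31.5 in siHic5siNS, 24.9, 27.1 and 27.0 in siCHD9siNS and 18.3, 46.3 and 18.8 in siCHD9siHic5. All 9 of these libraries exceeded the control range, with fitted increases of 7.03-fold (log2 2.81 ± 0.49, adjusted p = 3.08e-05), 3.74-fold (1.90 ± 0.48, adjusted p = 0.00338) and a log2 difference of 1.98 (adjusted p = 0.00109). In siBRMsiNS (6.36, 4.95 and 3.11 CPM) and siBRMsiHic5 (8.91, 6.06 and 21.2 CPM) GDF15 was not called.

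In libraries treated with dex, the same comparisons with siNSsiNS were made. In siCHD9siHic5 20 members rose and 0 fell (median log2 0.71 against -0.07 over all genes), where 22.3% of all genes were called higher and 29.2% lower. In siHic5siNS 6 rose and 6 fell (25.2% higher and 28.5% lower of all genes), in siBRMsiHic5 5 and 5 (22.4% and 23.1%), and in siBRMsiNS 2 and 2 (7.06% and 4.77%). The siBRMsiNS count was 0 without replicate 1 of siNSsiNS or replicate 3 of siBRMsiNS, 1 without replicate 2 of siNSsiNS and 7 without replicate 1 of siBRMsiNS; that of siBRMsiHic5 was 6 without replicate 2 of siNSsiNS. All 20 members called higher in siCHD9siHic5 with dex were among the 22 called with vehicle, and 0 members were called in opposite directions in the vehicle and dex libraries of any condition. Overlaps of vehicle and dex calls were not counted over all genes in any condition, so they are a description only.

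In siCHD9siNS 7 members rose with dex against 13 with vehicle, and 7.96% of all genes were called higher and 10.7% lower. The 7 were FAS (log2 1.27, adjusted p = 8.74e-05), TP53I3 (0.73, adjusted p = 0.00669), FDXR (1.11, adjusted p = 0.00889), TRIAP1, RRM2B, GDF15 and BAX, and 6 of them were also called with vehicle. With the replicate block 15 rose, where 10.7% of all genes were called higher and 13.7% lower, and DESeq2 called 13. Leaving out single dex libraries gave 3 members without replicate 1 of siNSsiNS, 1 without replicate 2 of siNSsiNS, 4 without replicate 2 of siCHD9siNS and 2 without replicate 3 of siCHD9siNS. The median over all members was 0.54 with dex and 0.60 with vehicle. MDM2 fell in siHic5siNS with dex (log2 -0.88 ± 0.22, 0.542-fold, adjusted p = 0.00139) and in siBRMsiHic5 (-0.70, adjusted p = 0.0111), and did not pass in siCHD9siHic5 (0.28, adjusted p = 0.301). The siBRMsiHic5 call was lost without replicate 2 of the siNSsiNS dex libraries (adjusted p = 0.0515). CDKN1A passed in no dex comparison with siNSsiNS without the block, with a log2 difference of 0.88 in siHic5siNS (adjusted p = 0.0657) and 0.75 in siCHD9siHic5 (adjusted p = 0.115).

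**Figure D4:**
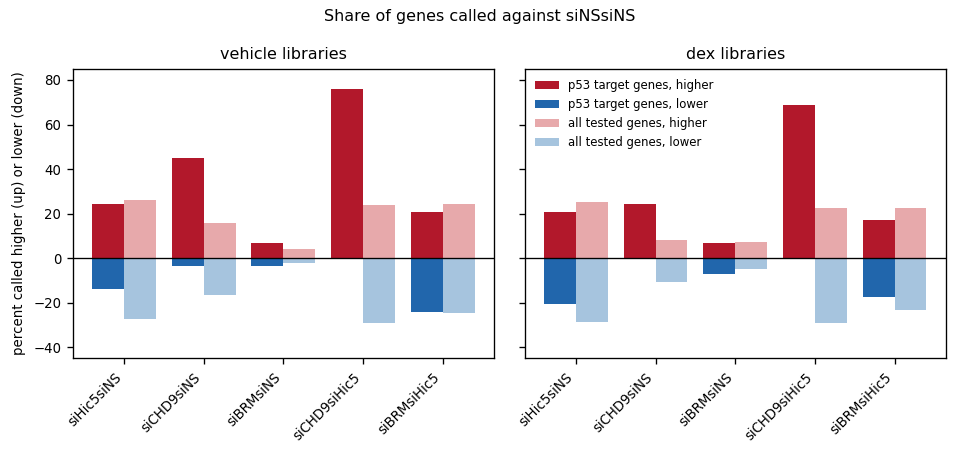
Percent of the 29 members (dark bars) and of all 15179 tested genes (pale bars) called higher (up from 0) or lower (down from 0) against siNSsiNS, by siRNA condition, in vehicle and dex libraries. The members called higher exceed the share of all genes furthest in the libraries labelled siCHD9siHic5, with 22 of 29 in vehicle and 20 of 29 in dex.

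The libraries labelled with 2 targets were also set against those labelled with 1. CHD9 was 2.05-fold higher in siCHD9siHic5 than in siCHD9siNS in vehicle (adjusted p = 8.24e-05), which goes against the label. Against siCHD9siNS in vehicle, 9 members rose and 0 fell in siCHD9siHic5, where 14.9% of all genes were called higher and 21.9% lower, with a median of 0.30. The increases of APAF1 (log2 0.79 ± 0.14, adjusted p = 7.5e-05), XPC (1.10, adjusted p = 9.26e-05), BTG2 (1.67, adjusted p = 0.0011) and PERP (2.03, adjusted p = 0.00124) were the 4 with the smallest p. With dex 7 rose and 0 fell (11.3% higher and 17.4% lower of all genes), and leaving out replicate 1 or 2 of siCHD9siNS or replicate 2 of siCHD9siHic5 left 4. CDKN1A (log2 0.07, adjusted p = 0.911) and MDM2 (0.27, adjusted p = 0.355) were not called in vehicle.

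Against siHic5siNS in vehicle, 15 members rose and 0 fell in siCHD9siHic5, where 21.9% of all genes were called higher and 25.7% lower, with a median of 0.54. APAF1 rose 2.13-fold (log2 1.09 ± 0.14, adjusted p = 3.48e-07), TRIAP1 2.28-fold (1.19 ± 0.18, adjusted p = 2.96e-06) and MDM2 1.99-fold (0.99 ± 0.22, adjusted p = 0.000523). TP53I3, RRM2B, FAS, SESN1 and FDXR rose by 1.00 to 1.52 on the log2 scale. XPC (log2 0.15, adjusted p = 0.554), BTG2 (0.38, adjusted p = 0.412), BBC3 (-0.02, adjusted p = 0.965) and CDKN1A (0.04 ± 0.40, adjusted p = 0.947), which were high in siHic5siNS as well, did not pass. With dex 15 rose and 1 fell (22.4% higher and 25.4% lower of all genes), the latter being GDF15 (log2 -1.18 ± 0.46, adjusted p = 0.0378), a call lost without any 1 of 3 libraries. These comparisons share libraries with those above.

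siBRMsiHic5 differed from siBRMsiNS in vehicle by 3 members higher and 2 lower, where 8.81% of all genes were called higher and 13.5% lower. CCNG1 (log2 0.55, adjusted p = 0.00725), BTG2 (1.21, adjusted p = 0.0223) and GDF15 (1.34, adjusted p = 0.0445) rose, and TP53INP1 (-0.61, adjusted p = 0.0186) and DDB2 (-0.51, adjusted p = 0.0204) fell. None of the 5 calls held in every alternative: 2 members were called without replicate 1 of siBRMsiNS, 1 without its replicate 2, 2 without replicate 1 of siBRMsiHic5 and 3 without its replicate 3, while DESeq2 called 8. Against siHic5siNS in vehicle, 2 members rose and 9 fell in siBRMsiHic5, where 25.2% of all genes were called higher and 24.2% lower, with a median of -0.25. TP53INP1 (log2 -1.59, adjusted p = 1.25e-07), PPM1D (-0.81, adjusted p = 0.000102), ZMAT3 (-1.09, adjusted p = 0.000723) and GDF15 (-2.03, adjusted p = 0.000864) fell, and TRIAP1 rose (0.75, adjusted p = 0.000839). The count was 7 without replicate 2 of either group.

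Whether members were called in the response to dex depended on the pairing of vehicle and dex libraries by replicate. Without the replicate block 0 of the 29 members were called in any of the 6 siRNA conditions, where 0.343% of all genes were called in siNSsiNS, 0.876% in siHic5siNS, 0.949% in siCHD9siNS, 0.382% in siBRMsiNS, 0.455% in siCHD9siHic5 and 0.501% in siBRMsiHic5. In that order, 0, 1, 3, 1, 1 and 2 members had an unadjusted p under 0.05. The share of all genes at that threshold is not given here, so these counts are not read as responses. DESeq2 called 1 in siCHD9siNS and 0 in the other conditions, and leaving out replicate 3 of the siCHD9siNS vehicle libraries gave 1 there as well. With the block, 1, 8, 11, 1, 4 and 6 members were called in the same order, where 2.5%, 8.93%, 24.1%, 3.91%, 4.74% and 5.95% of all genes were called.

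In siNSsiNS the 1 called member was SESN1, whose log2 ratios of dex to vehicle were 0.25, 0.59 and 0.15 in the 3 pairs (fitted 0.33 ± 0.07, adjusted p = 0.0165 with the block). CDKN1A (-0.17 ± 0.10, adjusted p = 0.505) and MDM2 (0.03, adjusted p = 0.915) were not called, and the SESN1 call was lost without pair 1. In siHic5siNS, 8 members fell and 0 rose with the block (4.57% of all genes lower and 4.36% higher). PLK2 (-0.42, -0.63 and -0.93 in the pairs; fitted -0.66 ± 0.12, adjusted p = 0.00137), PLK3 (-0.47, -0.62 and -0.59; -0.56 ± 0.10, adjusted p = 0.00145) and GDF15 (-0.38, -0.46 and -0.72; -0.52 ± 0.14, adjusted p = 0.0271) were lower in every pair. RRM2B, GADD45A, CYFIP2, TNFRSF10B and MDM2 fell by 0.20 to 0.38 on the log2 scale. Without replicate pair 2 or pair 3 of siHic5siNS 2 members were called, and 6 without pair 1.

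In siCHD9siNS, 8 members fell and 3 rose with dex with the block (13% of all genes lower and 11.1% higher). GDF15 fell by 1.25, 0.84 and 0.85 in the 3 pairs (fitted -0.98 ± 0.15, adjusted p = 0.000319) and BBC3 fell as well (-0.45 ± 0.09, adjusted p = 0.00165). CDKN1A was lower in every pair (-0.45, -0.58 and -0.31; -0.44 ± 0.10, adjusted p = 0.00304). APAF1 rose by 0.70, 0.43 and 0.38 (fitted 0.50 ± 0.07, adjusted p = 0.000118), with POLH (0.26 ± 0.06, adjusted p = 0.00305) and MDM2 (0.18 ± 0.06, adjusted p = 0.0298). PHLDA3, BAX, TRIAP1, FDXR and DDB2 fell by 0.20 to 0.28. Without replicate pair 1 of siCHD9siNS 5 members were called.

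In siBRMsiNS, TP53I3 rose (0.54, 0.48 and 0.34; fitted 0.45 ± 0.08, adjusted p = 0.00293 with the block). In siCHD9siHic5, GDF15 fell (-0.69, -0.98 and -0.67; -0.78 ± 0.15, adjusted p = 0.00323), PLK2 fell (-0.41 ± 0.12, adjusted p = 0.0493), and APAF1 (0.34 ± 0.06, adjusted p = 0.00392) and TP53INP1 (0.25 ± 0.07, adjusted p = 0.0377) rose. In siBRMsiHic5, APAF1 rose by 0.49, 0.35 and 0.40 (0.41 ± 0.07, adjusted p = 0.000953), with TP53INP1 (0.33 ± 0.07), TP53I3 (0.33 ± 0.08) and PPM1D (0.16 ± 0.04), while GADD45A (-0.45 ± 0.10) and PLK2 (-0.49 ± 0.12) fell. CDKN1A did not pass in siBRMsiNS (0.00, adjusted p = 0.995), siCHD9siHic5 (-0.33 ± 0.10, adjusted p = 0.0575) or siBRMsiHic5 (-0.20, adjusted p = 0.248). In siCHD9siHic5, 1 member was called without pair 1 or pair 2 and 2 without pair 3. In siBRMsiHic5, 1 was called without pair 1, 4 without pair 2 and 3 without pair 3, and the siBRMsiNS call was lost without pair 1.

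Counted over the 18 pairs of all conditions, as a description, PLK3 was lower with dex in 18 and higher in 0 (median log2 -0.34). TNFRSF10B was lower in 17, PLK2, GADD45A and BBC3 in 16 each, and GDF15 (median -0.68), CYFIP2, MDM4 and AEN in 15 each. APAF1 and SESN1 were higher in 17 pairs each (medians 0.28 and 0.15), TP53I3 and TP53INP1 in 16 each and PPM1D in 15. CDKN1A was lower in 14 and MDM2 in 11. Of 15029 genes with counts in every library, 149 were lower and 313 higher in all 18 pairs. Shares of all genes at fewer pairs were not computed. APAF1 was the only member whose response differed between an siRNA condition and siNSsiNS: its log2 response was larger in siCHD9siNS by 0.44 ± 0.0943 (95% interval 0.24 to 0.64, adjusted p = 0.0233 with the block, where 4.03% of all genes were called). Without the block the difference was 0.43 ± 0.20 and was not called, and with the block the call was lost without pair 1 or 3 of siNSsiNS or pair 1 or 2 of siCHD9siNS. With the block, 0.184%, 0%, 0.0132% and 0% of all genes differed in response in siHic5siNS, siBRMsiNS, siCHD9siHic5 and siBRMsiHic5, and 0 members did.

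**Figure D5:**
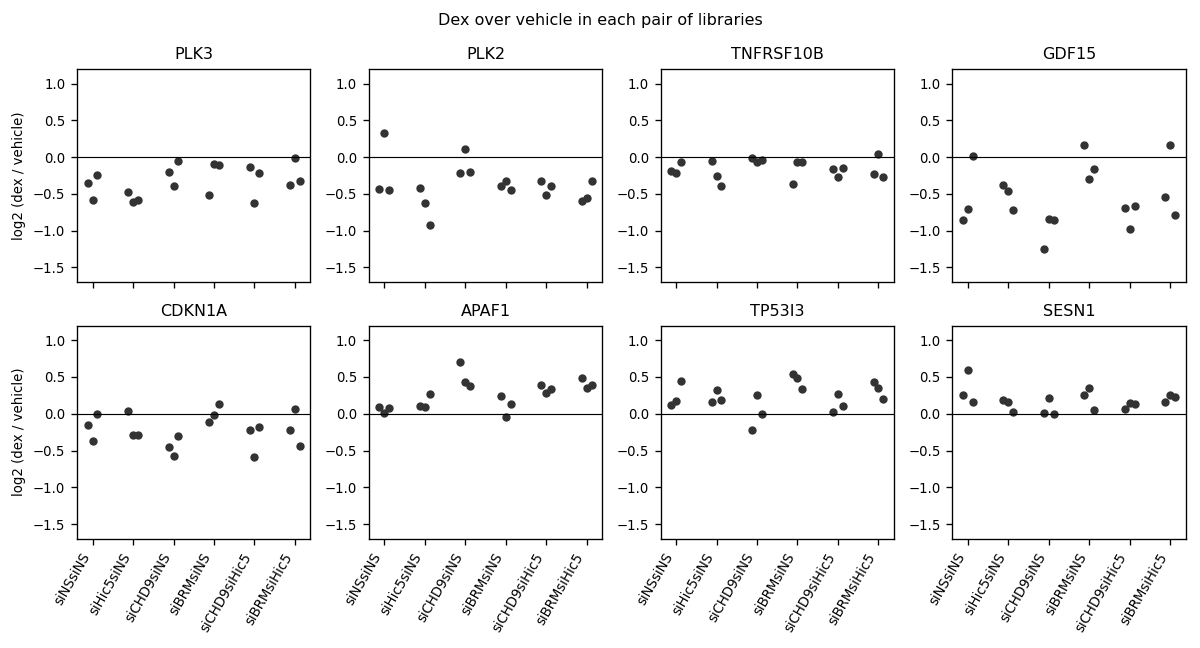
Log2 ratio of dex to vehicle in each of the 18 replicate pairs (points) of 8 members, by siRNA condition, with the line at 0 for no difference. PLK3 lies below 0 in all 18 pairs and APAF1 above 0 in 17.

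Other genes around p53 were taken from fixed lists and compared with siNSsiNS in vehicle libraries. Of all tested genes, 26% were called higher and 27.2% lower in siHic5siNS, 15.8% and 16.5% in siCHD9siNS, 4.26% and 2.19% in siBRMsiNS, 23.7% and 28.9% in siCHD9siHic5 and 24.4% and 24.6% in siBRMsiHic5, with medians of -0.01, 0.02, 0.04, -0.05 and -0.01. Of 20 genes in the list of p53 regulators, 6 rose and 6 fell in siHic5siNS, 3 and 5 in siCHD9siNS, 0 and 3 in siBRMsiNS, 6 and 5 in siCHD9siHic5 and 1 and 11 in siBRMsiHic5, with medians of 0.10, 0.06, -0.09, 0.16 and -0.39. The acetyltransferase gene CREBBP fell in siCHD9siNS (log2 -0.50), siBRMsiNS (-0.27) and siBRMsiHic5 (-0.75), the kinase gene CHEK2 fell in siHic5siNS (-1.27 ± 0.13, adjusted p = 9.7e-09), and PPP1R13L, which encodes an inhibitor of p53, rose in siCHD9siHic5 (1.15, adjusted p = 9.88e-08).

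In the same comparisons, and to be read against the same shares of all genes, 9 of 22 further p53 targets rose and 3 fell in siHic5siNS, 11 and 1 in siCHD9siNS, 0 and 0 in siBRMsiNS, 13 and 2 in siCHD9siHic5 and 6 and 5 in siBRMsiHic5, with medians of -0.01, 0.46, -0.10, 0.82 and -0.06. DRAM1, a lysosomal regulator of autophagy, rose by 1.63, 1.00, 1.83 and 1.12 in the conditions other than siBRMsiNS. STEAP3, a ferrireductase, fell by 1.01, 1.45 and 0.64 in siHic5siNS, siCHD9siHic5 and siBRMsiHic5. Of 24 cell cycle genes repressed through p21 and the DREAM complex, 0 rose and 21 fell in siHic5siNS (median -1.22), 2 and 16 in siCHD9siHic5 (median -0.70), 3 and 9 in siBRMsiHic5 (median -0.17), 3 and 2 in siCHD9siNS (median 0.03) and 0 and 0 in siBRMsiNS (median -0.10). In siHic5siNS, CCNB1 fell by 1.81 and CDC20 by 2.39 on the log2 scale. In siCHD9siNS, PCNA (log2 0.84) and TYMS (0.88) were among the 3 that rose. Their part in the levels of the p53 targets was not tested.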

How the data were processed

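RNA-seq was made from 36 libraries in 12 groups. TopHat2 2.1.1, edgeR and the GRCh38 build are named in the submitters' processing notes, which give neither counter nor annotation. What the authors deposited are whole-number counts per gene, 27.4 to 47.1 M per library. The table is named as upper-quartile normalised CPM, but whole numbers with totals that differ by library do not have that form, so they were taken as raw counts; every CPM and test here rests on that reading. They were fitted together with edgeR 4.0.16 in R 4.3.3 (upper-quartile factors, 12 group means, glmQLFit and glmQLFTest) for 15179 genes above 1 CPM in at least 3 libraries, leaving out 7. P-values were adjusted by Benjamini-Hochberg over all genes of a comparison, and genes were called under 0.05. Printed CPM use the same factors.

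The members and gene lists were chosen with earlier results of these data known, and 4 of 27 comparisons were added after values were seen (siCHD9siHic5 against siHic5siNS in both treatments and against siCHD9siNS with dex, and siBRMsiHic5 against siHic5siNS in vehicle). By the naming rule, CDKN1A, MDM2 and up to 8 called members with the smallest p were named per comparison; the remaining members were named to account for the whole set. Of the other lists, up to 4 called genes with the smallest p could be named. Some genes of these lists are not reported here.

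Residuals of vehicle and dex libraries with the same condition and number correlated at 0.458 to 0.922 in all 18 pairs, so dex responses are also given with a replicate block (a term per pair). Between siRNA conditions the correlations ran from -0.242 to 0.722, and every pair passed 0.1 in 9 of 16 comparisons. There the block is a term for the replicate number. Without a block the biological coefficient of variation, from the common dispersion of the fit, was 19.0%, against 7.59% with the pairs and 16.5% with the number. The labels do not tie replicate numbers to days across conditions. Over 36 pairs of libraries no copies were found, with a chi-square per degree of freedom of at least 9.41. DESeq2 1.42.0, TMM factors, no filter and leaving out each library were alternatives. On simulated data with 15179 genes, 73.9% of changes of 2-fold were recovered for siHic5siNS against siNSsiNS in vehicle. Few genes were changed in the simulation and many were called in the data, so this share does not carry over to the real comparison.

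Of the genes, 15116 matched RefSeq by Entrez ID. Exons of 10 of the 29 members overlap another gene in GENCODE 29, and no source used here says whether counting used strand.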

Additional observations from a re-analysis of the deposited data

Results flagged for a closer look

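With the replicate block only, the response of APAF1 to dex differed between siRNA conditions by a test of the difference itself. It was not called without the block, and with the block the call was lost when some single pairs were left out. In the same test with the block, 4.03% of all genes were called, and APAF1 was the only member called. With the replicate block, its log2 response was larger by 0.44 ± 0.0943 (SE, adjusted p = 0.0233 by edgeR's quasi-likelihood test) in siCHD9siNS than in siNSsiNS. The log2 ratios of dex to vehicle were 0.70, 0.43 and 0.38 in the 3 siCHD9siNS pairs and 0.10, 0.00 and 0.08 in the 3 siNSsiNS pairs, without overlap.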

How the results depend on the processing

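No member difference called without the block changed sign under any alternative. The balance of higher and lower calls did turn in vehicle: siBRMsiHic5 against siNSsiNS went from 6 higher and 7 lower to 3 and 2 without replicate 1 of siNSsiNS and to 6 and 4 without replicate 2 of siBRMsiHic5, and siBRMsiNS went from 2 and 1 to 2 and 4 without its replicate 1. The replicate block moved the number of called members from 7 to 15 in siCHD9siNS against siNSsiNS with dex. In the dex responses it moved 0 to 1 in siNSsiNS, 8 in siHic5siNS, 11 in siCHD9siNS, 1 in siBRMsiNS, 4 in siCHD9siHic5 and 6 in siBRMsiHic5, and to 1 in the difference of responses between siCHD9siNS and siNSsiNS. DESeq2 gave 13 in siCHD9siNS with dex, 8 in siBRMsiHic5 against siBRMsiNS and 1 in the dex response of siCHD9siNS. The causes were not tested, and the shares of all genes called by DESeq2 were not computed. Omitting the filter moved no count past 1.5 times, nor did TMM factors.

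Leaving out 1 library in vehicle gave 8 to 13 called members in siHic5siNS, 9 to 13 in siCHD9siNS, 0 to 6 in siBRMsiNS, 17 to 22 in siCHD9siHic5 and 5 to 11 in siBRMsiHic5, each against siNSsiNS. With dex it gave 10 to 13, 1 to 7, 0 to 7, 17 to 20 and 6 to 11 in the same order. siCHD9siHic5 against siCHD9siNS gave 6 to 8 in vehicle and 4 to 7 with dex, and against siHic5siNS 13 to 17 and 15 to 18. siBRMsiHic5 gave 1 to 6 against siBRMsiNS and 7 to 11 against siHic5siNS. The dex responses without the block gave 0 to 1 in siCHD9siNS and 0 in the others. With the replicate block, leaving out 1 pair gave 0 to 1 in siNSsiNS, 2 to 6 in siHic5siNS, 5 to 11 in siCHD9siNS, 0 to 1 in siBRMsiNS, 1 to 2 in siCHD9siHic5, 1 to 4 in siBRMsiHic5 and 0 to 1 for the difference in siCHD9siNS.

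With 3 libraries a group, small changes could be missed. On simulated data the fit without the block recovered 31.3% of changes of 1.5-fold for siHic5siNS against siNSsiNS in vehicle. Few genes were changed in that simulation, whereas 26% of all genes were called higher and 27.2% lower in the data. The simulated share is therefore not the recovery in the real comparison. P-values rest on a spread between replicates that was estimated jointly over the 12 groups, all of 1 cell line.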
